A study of Mus musculus with 10 samples.

Results

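The genes described here encode the constitutive proteasome and its partners: every protein-coding mouse gene with a symbol made of Psma, Psmb, Psmc, Psmd, Psme, Psmf or Psmg and a number, except the immunoproteasome genes Psmb8, Psmb9 and Psmb10. The rule uses names only, and it found 45 of the 55385 mouse genes in the table. There are 8 genes of the 20S alpha ring, 8 of the 20S beta ring, 6 ATPases and 14 non-ATPases of the 19S particle, 4 activators (Psme), the inhibitor Psmf1 and 4 assembly chaperones (Psmg). Of these, 43 passed the filter of a mean of at least 5 CPM (counts scaled to library size). The other 2, Psma8 and Psmb11, are known from testis and thymus and are described on their own.

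The 20S core is a barrel of stacked alpha and beta rings in which Psmb5, Psmb6 and Psmb7 carry the cutting sites. The 19S particle binds its ends, takes up ubiquitin-tagged proteins, removes the ubiquitin and feeds the unfolded chain into the barrel with the work of its ATPases. Other caps can take its place: PA28, built of Psme1 and Psme2, is induced by interferon gamma and is known for its part in making peptides for antigen presentation. PA28 gamma (Psme3) and PA200 (Psme4) are mainly nuclear. Interferon also brings Psmb8, Psmb9 and Psmb10 into newly made barrels in place of Psmb5, Psmb6 and Psmb7, which gives the immunoproteasome.

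RNA was sequenced from Tomato-positive neutrophils of squamous cell carcinomas grown from grafts on CatchupIVM-red mice, whose red reporter is linked to the neutrophil gene Ly6g. The grafts were parental tumour cells with low Sox2 (control) or cells with high Sox2 (Sox2Hi). Sox2 is a stem cell transcription factor, and the design asks whether it lets tumour cells dampen the response of neutrophils to interferon. Naive mice had no therapy, and treated mice were given anti-PDL1 antibody together with an agonist of CD40. There were 3 libraries of naive and 2 of treated control tumours, and again 3 of naive and 2 of treated Sox2Hi tumours. All 4 groups share the reporter hosts and the sort, and library names carry C57 in all groups and GFP in the control groups, which the labels do not explain. The labels give no host age, no duration of treatment and no number of clones behind the Sox2Hi cells. They do not say whether each library came from a separate animal, and the p-values measure only the spread between these libraries. A library holds RNA of many cells, so fewer cells of a type and less RNA per cell cannot be told apart.

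Library totals ran from 13815734 to 22986193 counts. Reads over 1466 olfactory and vomeronasal receptor genes, taken as silent, gave an expected background of 1.58% and 1.74% of counts in the treated control libraries and 3.63% to 8.39% in the others. Summed levels of the 10 neutrophil markers were 12424 to 20317 CPM in naive control and 38588 to 39680 CPM in treated control, and 11220 to 16304 and 20879 to 21149 CPM in the Sox2Hi groups. Ly6g itself stood at only 1.74 to 3.50 CPM in naive control, 11.4 to 17.8 in treated control, 1.87 to 3.19 in naive Sox2Hi and 5.80 to 10.3 in treated Sox2Hi. Of the 10 markers, 9 rose with treatment in control and 5 in Sox2Hi tumours. Among markers of other cells, the 5 T and NK cell markers summed to 33.8 to 54.6 CPM in naive control and 82.6 to 315 in treated control. Nkg7 made up 61.0 and 233 CPM of the treated control sums. In control tumours Cd3d was at 8.71 to 15.8 CPM naive and 12.2 and 50.3 treated, and Cd8a at 5.99 to 8.47 naive and 4.77 and 21.3 treated. Cd3e was at 8.28 CPM or less. Klrb1c was at 1.27 to 2.73 CPM naive and 2.24 and 1.31 treated. For Cd3d, Cd8a and Cd3e only treated control replicate 2 lay above the naive control libraries. In Sox2Hi tumours the 5 T and NK cell markers summed to 22.5 to 63.7 CPM naive and 113 to 183 CPM treated. The sum of the 6 fibroblast and endothelial markers went the other way, from 205 to 639 down to 63.3 to 81.1 CPM in control and from 330.5 to 530.2 down to 88.5 to 191 CPM in Sox2Hi. Not each of the 6 fell. Mean Pecam1 was at 23.1 CPM naive and 24.9 treated in control and at 19.6 and 21.1 in Sox2Hi. Mean Cdh5 was at 2.45 and 2.47 CPM in Sox2Hi. The 5 proliferation markers summed to 222 to 359 CPM in naive control and 112 to 153 in treated control, and to 229.6 to 299.7 and 113 to 121 CPM in Sox2Hi. The 4 erythroid markers summed to 618 to 1603 CPM in naive and 52.1 to 309 CPM in treated control tumours, where 3 of 4 fell, and to 273 to 585 and 25 to 65.5 CPM in Sox2Hi tumours, where 4 of 4 fell. Of 6 keratinocyte markers Krt5 and Trp63 fell in control tumours (-1.34 and -1.08). The 6 macrophage markers summed to 216 to 310.4 CPM in naive and 241 to 457 in treated control, and to 289 to 342 and 255 to 428 CPM in Sox2Hi. Of these Csf1r rose in both grafts (0.96 in control and 0.84 in Sox2Hi), although the all-gene and 20S scalings did not call its rise in Sox2Hi tumours, and the all-gene scaling called 4 of the 6 higher in control. No marker was at 0 in all libraries. The keratinocyte and macrophage sums of naive and treated libraries overlapped in both grafts. The sums of the other lists named here moved with treatment in the same comparisons as the genes described. The part of any of these lists in each result was not tested. Reads of Ddx3y, a gene of the Y chromosome, were 8 or fewer in 4 libraries and 1007 or more in 6, with both kinds in each group, so no group came from a single mouse.

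Treatment changed a few proteasome genes and left most without a call. In control tumours 11 of the 43 genes passed the test (edgeR quasi-likelihood test, adjusted p under 0.05), against 57.3% of all 11274 genes tested (24.1% higher and 33.1% lower). The share of the 43 was 25.6%. Psme1, Psme2, Psmf1, Psma6, Psmd8 and Psmd10 rose, and Psmd1, Psmd5, Psmd9, Psmg1 and Psmg2 fell. In Sox2Hi tumours 6 passed, against 21.6% of all genes (15% higher, 6.57% lower): Psme1 and Psme2 rose, and Psmd1, Psmd2, Psmd5 and Psmg1 fell. The median log2 change of the 43 genes was -0.01 in control and -0.19 in Sox2Hi tumours, beside -0.18 and 0.09 over all genes tested. Between the grafts 1 gene passed in naive tumours (Psme3, higher in Sox2Hi, against 14% of all genes, 2.1% higher and 11.9% lower), 2 in treated tumours (Psmd9 higher and Psme2 lower, against 20.9%, 15% higher and 5.87% lower) and 1 in the interaction (Psme3, lower, against 19.8%, 16.9% higher and 2.84% lower).

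The counts also rested on single libraries. In control tumours 7 genes were called without naive control replicate 1 or without either treated control library, in fits that called 43.2% to 49.5% of all genes. In Sox2Hi tumours 12 were called without naive control replicate 2, 2 without naive Sox2Hi replicate 3 and 0 without treated Sox2Hi replicate 2 (edgeR, 6 at an unadjusted p under 0.05). These 3 fits called 29.4%, 5.86% and 1.77% of all genes, so the share over all genes moved with the same libraries.

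These numbers depended on how libraries were scaled. The values above use factors from the 11274 expressed genes. With factors from all 29648 genes that pass the usual count filter, called the all-gene scaling below, 19 of 45 genes rose and 0 fell in treated control tumours (edgeR, 23 at an unadjusted p under 0.05), against 18.7% and 15.3% of all genes and 34% in either direction. In the same fit 1 rose and 2 fell in treated Sox2Hi tumours, against 1.79% and 1.82% (3.61% either way). Of the 45 genes 1 was higher in Sox2Hi among naive tumours, against 1.66% (0.209% lower, 1.87% either way), and 8 were lower among treated tumours, against 9.57% (4.18% higher, 13.7% either way). By the interaction 24 had a lower response in Sox2Hi, against 16.2% (11.3% higher, 27.5% either way). Changing the scaling moved the median treatment effect in control tumours from 0.516 to 1.07 on the log2 scale in genes of 100 CPM or more, and the interaction median of the same genes from -0.367 to -1.19. Another scaling, chosen after seeing the data, divides each library by its own 14 core 20S genes and so asks which genes moved relative to the core particle. It is called the 20S scaling, and it gave 5 higher and 9 lower genes in treated control tumours, against 15.6% and 31.1% of all genes (46.7% either way). In treated Sox2Hi tumours it gave 2 higher and 1 lower, against 3.82% and 2.11% (5.93% either way). Of the 43 genes it called 0 between naive grafts (edgeR, 5 at an unadjusted p under 0.05, against 0.0532% of all genes called), 2 between treated grafts (13.9%) and 0 in the interaction (edgeR, 2 at an unadjusted p under 0.05, against 12.6%). In the same order of 5 comparisons DESeq2 called 12, 11, 3, 12 and 6 genes, against 58%, 27%, 16.6%, 27.9% and 29.8% of all genes. The test limma-voom called 13, 10, 5, 0 (6 at an unadjusted p under 0.05) and 1, against 59.8%, 33.4%, 36.6%, 15.8% and 24.4%.

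**Figure D1:**
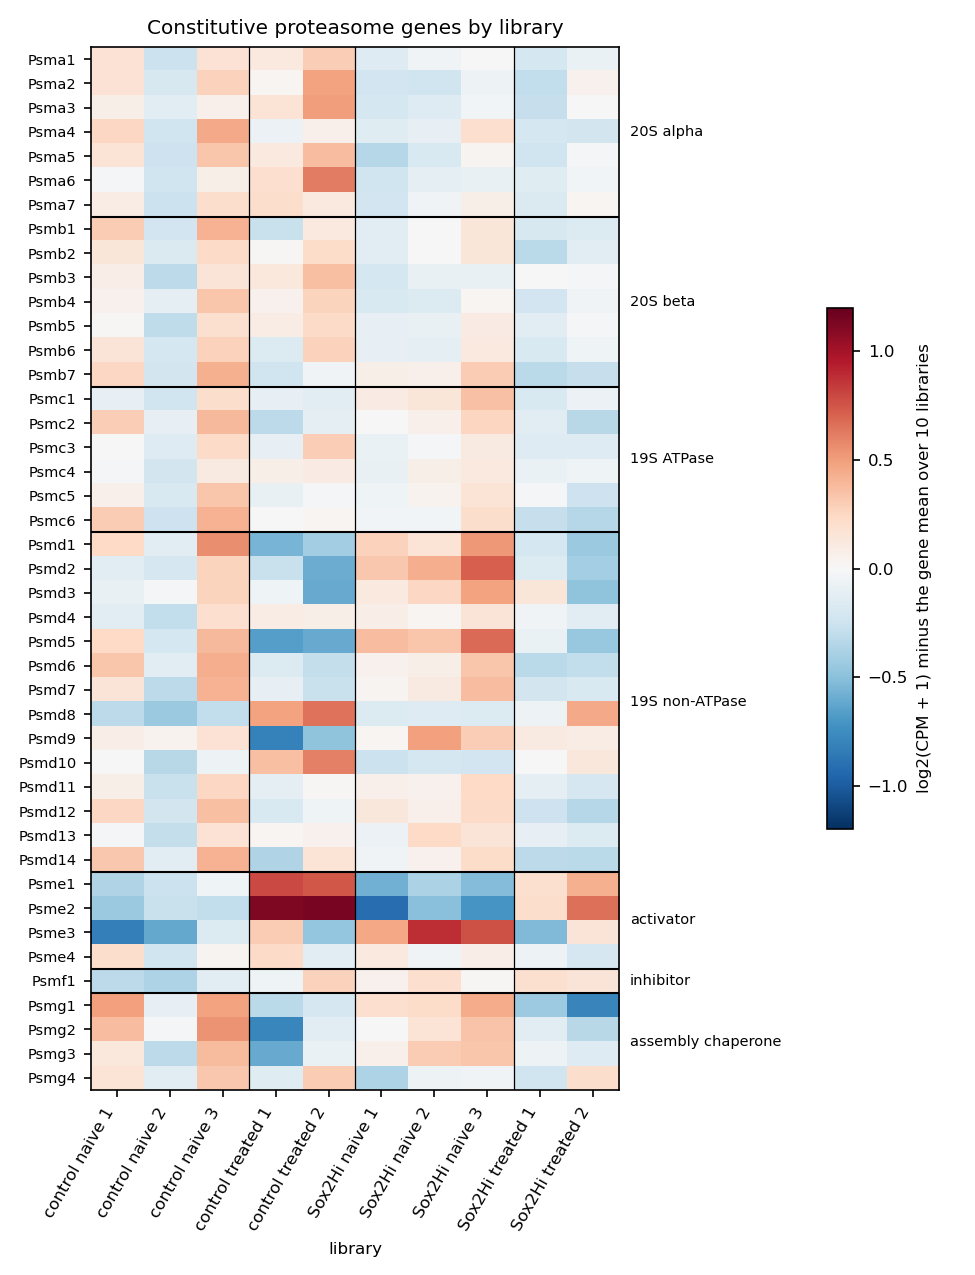
Expression of the 43 tested proteasome genes (rows, grouped by class) in the 10 libraries (columns), as log2(CPM + 1) minus the mean of each gene over the libraries. The rows of Psme1, Psme2 and Psmd8 are higher in all 4 treated libraries than in any of the 6 naive ones, and the columns of naive control replicates 2 and 3 are pale blue and pale red through most classes.

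Within 3 of the 4 groups most of the 43 genes ranked the libraries alike. How many of all expressed genes ranked them the same way was not counted, so this is not shown to be particular to the set. Control naive replicate 2 was the lowest of its group in 39 of the 43 genes and replicate 3 the highest in 37. In naive Sox2Hi, replicate 1 was the lowest in 31 genes and replicate 3 the highest in 34. In treated control, replicate 1 was the lower library in 33 genes. In treated Sox2Hi, replicate 1 was the lower library in 22 and replicate 2 in 21. The 45 genes together held between 0.513% and 0.804% of the counts. This spread within groups is the error against which each treatment effect was tested.

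Most genes of the core particle were not called. Summed over its 14 genes Psma1 to Psma7 and Psmb1 to Psmb7, it stood at 3181 ± 539 CPM in naive control (SD, n = 3), 3354 ± 426 in treated control (SD, n = 2), 2879 ± 244 in naive Sox2Hi (SD, n = 3) and 2751 ± 198 in treated Sox2Hi (SD, n = 2). The 14 genes had a median log2 change with treatment of 0.14 in control and -0.04 in Sox2Hi tumours, and 1 of 14 passed the test in control and 0 of 14 in Sox2Hi (edgeR, 1 gene at an unadjusted p under 0.05). Under the all-gene scaling these medians were 0.67 and -0.31, with 8 genes higher in treated control tumours. Between naive grafts the direction of the core turned with the scaling. In naive tumours all 14 were below 0 (median -0.12), but all 14 were above 0 under the all-gene scaling (median 0.24), and none passed in either fit (edgeR, 0 genes at an unadjusted p under 0.05 in both). All genes at 100 CPM or more moved likewise between these scalings, with medians of -0.01 and 0.35 between naive grafts. In treated tumours all 14 were below 0 under both scalings (medians -0.29 and -0.74), with 0 called under the first (edgeR, 2 at an unadjusted p under 0.05) and 4 called lower under the all-gene scaling. All genes at 100 CPM or more had medians of -0.37 and -0.81 in the same comparison. In the interaction 0 of the 14 passed with the expressed-gene scaling (median -0.14, edgeR, 0 at an unadjusted p under 0.05). The all-gene scaling called 8 lower (median -0.94), against 16.2% of all genes. All genes at 100 CPM or more had interaction medians of -0.367 and -1.19 under these scalings. With library totals 30 of the 43 proteasome genes were above 0 between treated grafts, against 8 with the expressed-gene scaling, so the direction of the whole list turned with that setting.

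With the expressed-gene scaling the 3 catalytic genes did not pass the test in any comparison. Psmb5, the chymotrypsin-like subunit, was measured at 48.7, 38.9 and 55.3 CPM in naive control, 51.2 and 56.8 in treated control, 45.0, 45.2 and 51.6 in naive Sox2Hi, and 43.9 and 47.6 in treated Sox2Hi. Psmb6, the caspase-like subunit, was at 483, 374 and 523 CPM in naive control and 387 and 526 in treated control. It was at 403, 398 and 469 CPM in naive Sox2Hi and 381 and 419 in treated Sox2Hi, so treated and naive libraries overlapped in both grafts. Psmb7, the trypsin-like subunit, had the lowest estimates of the 3, -0.32 in control (SE 0.19, adjusted p 0.18) and -0.45 in Sox2Hi tumours (SE 0.19, adjusted p 0.11). DESeq2 called Psmb7 lower in treated Sox2Hi tumours (-0.55, adjusted p 0.022), as did limma-voom, RLE factors and 4 other alternatives (one of them the fit without naive control replicate 2), and the 20S scaling called it lower in control (-0.38, adjusted p 0.039), as did library totals and the fit without naive control replicate 2. Psmb5 was called under the all-gene scaling, higher in treated control tumours (0.71, adjusted p 0.028) and lower in the interaction (-1.03, adjusted p 0.033), and Psmb6 with library totals in control (-0.53, adjusted p 0.036). The exons of Psmb7 share 11.8% of their length with Nek6 on the other strand, and whether counting used strand is not stated.

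Psma6, a subunit of the outer alpha ring, was the core gene that passed. It stood at 99.1, 85.2 and 106 CPM in naive control and at 116 and 155 CPM in treated control, without overlap (log2 change 0.48, SE 0.16, adjusted p 0.026). In Sox2Hi tumours it was at 85.7, 93.9 and 95.0 CPM naive and 91.0 and 98.5 CPM treated (0.05, SE 0.16). The call was lost without naive control replicate 1 or 2 or treated control replicate 2, and in 3 other alternatives. The difference between the 2 responses was not past the threshold (interaction -0.43, SE 0.23, adjusted p 0.23), but was called under the all-gene scaling (-1.25, adjusted p 0.014), by DESeq2 (-0.68, adjusted p 0.024), with RLE factors and without treated control replicate 1 (-0.81, adjusted p 0.042).

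Per kb of annotated exon, the core genes were not at equal levels. Over all libraries Psmb6 had 233 CPM per kb, Psmb2 182 and Psma5 169.9, and Psmb7 had the lowest level of the 14 with 32.5. The 6 ATPases lay closer together, from 42.8 CPM per kb for Psmc6 to 73.5 for Psmc5. Exon length here is the union of all annotated exons, so levels of genes with long alternative exons are understated. Expected background made up at most 0.974% of the reads of a core gene.

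The 19S ATPases Psmc1 to Psmc6 form the ring that unfolds substrates. With the expressed-gene scaling none of the 6 passed in any of the 5 comparisons (edgeR, with 1 gene at an unadjusted p under 0.05 for treated control tumours and 0 for the other comparisons). Their changes ran from -0.42 to 0.12 in control and from -0.36 to -0.10 in Sox2Hi tumours. Psmc2 had the lowest value in control (-0.42, SE 0.18), with 304, 231 and 326 CPM in naive and 199 and 229 CPM in treated libraries, which do not overlap. Under the all-gene scaling Psmc3 and Psmc4 rose in control tumours, and the interaction was called below 0 for Psmc1, Psmc3 and Psmc4 (-1.05, -1.04 and -1.03). In control tumours Psmc2 fell under the 20S scaling, with limma-voom, with background subtraction and without naive control replicate 2. Library totals called 4 of the 6 lower in control and 3 lower in Sox2Hi tumours. Psmc1 fell in Sox2Hi tumours with DESeq2 (-0.43, adjusted p 0.04), and Psmc6 without naive control replicate 2 (-0.44, adjusted p 0.033) and with the groups compared alone (-0.43, adjusted p 0.05).

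Of the 14 non-ATPase genes, 2 rose and 3 fell in control tumours, beside 24.1% and 33.1% of all genes. In Sox2Hi tumours 0 rose and 3 fell, beside 15% and 6.57%, with medians of -0.30 and -0.39. Psmd8, a subunit of the 19S lid, had the largest rise. It was measured at 67.8, 61.8 and 68.6 CPM in naive control and at 118 and 133 CPM in treated control (log2 change 0.93, SE 0.16, adjusted p 0.0011). Of the 21 alternatives run for this value, all 21 kept the call, over a range of 0.41 to 1.47. In Sox2Hi tumours the naive libraries were at 75.3, 75.4 and 75.3 CPM and the treated ones at 80.8 and 116 CPM (0.38, SE 0.16, adjusted p 0.11). The 2 treated Sox2Hi libraries differed more from each other than replicate 1 did from the naive ones. The difference in response was not past the threshold (interaction -0.54, SE 0.23, adjusted p 0.14), but was called under the all-gene scaling (-1.36, adjusted p 0.008). It was also called with DESeq2 (-0.79, adjusted p 0.011), with RLE factors (adjusted p 0.03) and without treated Sox2Hi replicate 2 (-1.01, adjusted p 0.017), and was below 0 in each of these fits.

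**Figure D2:**
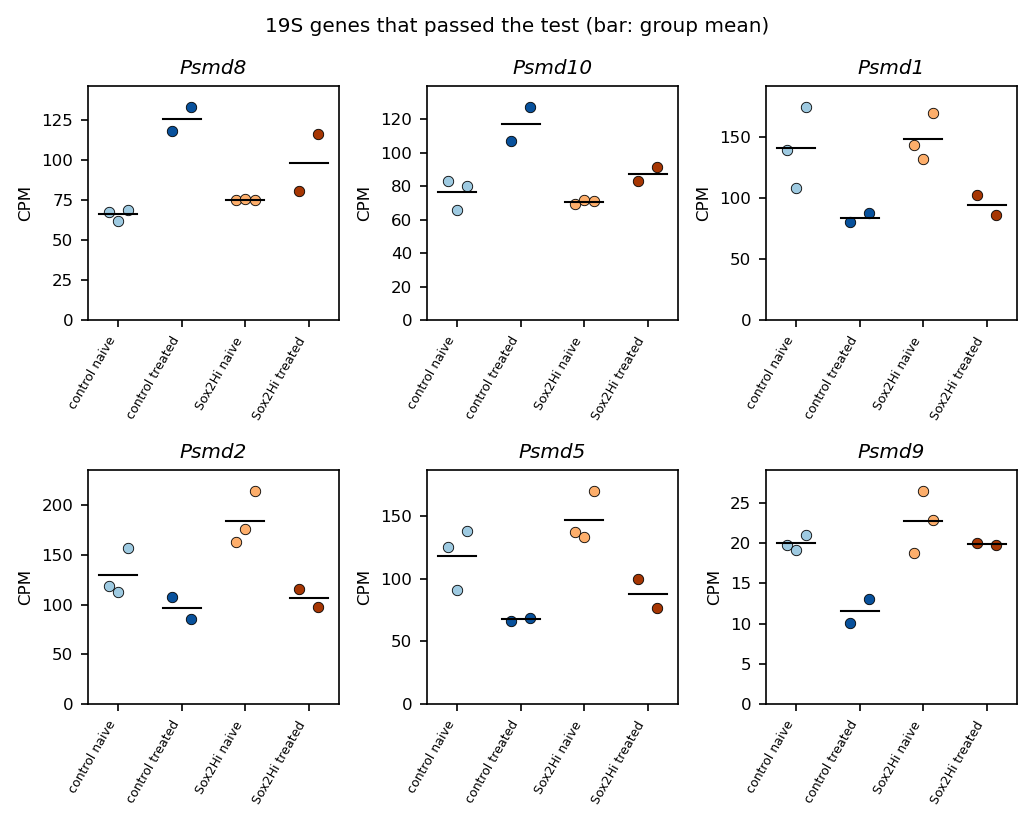
CPM (vertical axis, from 0) of the 6 non-ATPase genes called in a treatment comparison, by group, with points for libraries and bars for group means. Psmd8 and Psmd10 are highest in treated control, Psmd1 and Psmd5 are lower in treated than in naive libraries of both grafts, and Psmd9 is low only in the 2 treated control libraries.

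Psmd5, Psmd9 and Psmd10 are known as chaperones that help to assemble the ATPase ring and then leave it. Psmd10 (gankyrin) rose in control tumours from 83.0, 65.8 and 79.9 CPM to 107 and 127 CPM (0.62, SE 0.15, adjusted p 0.0054), and lost the call with unscaled library totals. Naive Sox2Hi libraries were at 69.3, 71.7 and 71 CPM and treated ones at 82.9 and 91.3 CPM, which do not overlap, and the change was not past the threshold (0.30, SE 0.15, adjusted p 0.16). Between treated grafts Psmd10 had -0.43 (SE 0.17, adjusted p 0.093), called with DESeq2 (-0.59, adjusted p 0.0056), RLE factors (adjusted p 0.028), the all-gene scaling (-0.88, adjusted p 0.025) and without naive control replicate 2 (-0.46, adjusted p 0.044). Its interaction was -0.32 (SE 0.21, adjusted p 0.35), called with DESeq2 (-0.57, adjusted p 0.039) and the all-gene scaling (-1.13, adjusted p 0.015). The other chaperones fell in control tumours. Psmd5 went from 125, 90.8 and 138 CPM to 66.1 and 69.0 CPM in control (-0.80, SE 0.21, adjusted p 0.0073) and from 137, 133 and 169.8 CPM to 99.8 and 76.5 CPM in Sox2Hi tumours (-0.73, SE 0.21, adjusted p 0.031). In each graft all treated libraries lay below all naive ones. Psmd9 went from 19.7, 19.1 and 21 CPM to 10.1 and 13.0 CPM in control (-0.78, SE 0.19, adjusted p 0.0048). It was at 18.8, 26.4 and 22.9 CPM in naive Sox2Hi and 20 and 19.8 CPM in treated Sox2Hi (-0.19, SE 0.18, adjusted p 0.45).

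Psmd9 therefore differed between the grafts after treatment, with Sox2Hi higher (0.78, SE 0.20, adjusted p 0.024). That call was lost in 9 of 21 alternatives, among them the all-gene scaling (0.32, adjusted p 0.37) and the fits without any 1 of the 4 treated libraries. The interaction for Psmd9 was 0.59 (SE 0.26, adjusted p 0.14). Expected background made up 12.0% of its reads, and 25.5% of its exon length is shared with the non-coding gene Gm26745 on the other strand.

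Psmd1 and Psmd2 are the large scaffold subunits of the 19S base. Psmd1 fell from 139, 108 and 174 CPM to 79.9 and 87.9 CPM in control (-0.74, SE 0.21, adjusted p 0.011). It fell from 143, 132 and 169 CPM to 102 and 86.2 CPM in Sox2Hi tumours (-0.65, SE 0.21, adjusted p 0.045). Psmd2, where shuttle proteins dock, fell in Sox2Hi tumours from 163, 176 and 214 CPM to 116 and 97.7 CPM (-0.78, SE 0.20, adjusted p 0.022). In control tumours Psmd2 was at 119, 113 and 157 CPM naive and 108 and 85.8 CPM treated (-0.42, SE 0.20, adjusted p 0.088). The naive libraries of Psmd2 were higher in Sox2Hi than in control without overlap (0.51, SE 0.17, adjusted p 0.081), and the fit blocked by replicate number called it (0.52, adjusted p 0.021).

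The falls were less firm than the rise of Psmd8. In control tumours the calls of Psmd1, Psmd5 and Psmd9 were lost under the all-gene scaling (-0.21, -0.27 and -0.24). They were also lost without treated control replicate 1, and those of Psmd1 and Psmd5 also without replicate 2. In Sox2Hi tumours Psmd1 lost its call without any 1 of the 5 Sox2Hi libraries and without naive control replicate 1. Psmd2 lost it under the 20S scaling (-0.70, adjusted p 0.072) and without naive Sox2Hi replicate 3 or either treated library. Psmd5 lost it without naive Sox2Hi replicate 3 or treated replicate 2. Both Psmd1 and Psmd5 also lost it under the all-gene and 20S scalings, with values of -1.01 to -0.58 that stayed below 0.

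Psmd4, a ubiquitin receptor, was at 173, 155 and 219 CPM in naive control and 203 and 200 in treated control (0.14, SE 0.16). Psmd14, the deubiquitinase of the lid, was at 229, 167 and 245 CPM and at 142 and 205 CPM (-0.30, SE 0.20). Neither passed in Sox2Hi tumours (-0.17, SE 0.16, and -0.40, SE 0.20). The other members of the class ran from -0.46 for Psmd6 to 0.07 for Psmd13 in control tumours and from -0.48 for Psmd6 to -0.25 for Psmd13 in Sox2Hi tumours.

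Relative to the core, the summed 19S genes of this set were lower after treatment. The 20 genes of the 19S were summed per kb of exon and divided by the same sum of the 14 core genes, a ratio that does not depend on library scaling. It was 0.597, 0.616 and 0.622 in naive control and 0.575 and 0.520 in treated control. It was 0.704, 0.686 and 0.688 in naive Sox2Hi and 0.643 and 0.567 in treated Sox2Hi. Each treated library lay below each naive library of its graft. The mean difference was -0.18 on the log2 scale, or 0.883-fold (exact two-sided permutation within grafts, p = 0.01, the smallest that 100 arrangements can give, and 0.02 adjusted over 6 tests). Between grafts the ratio was 1.12-fold higher in Sox2Hi (exact two-sided permutation within treatments, p = 0.0333, and 0.05 adjusted, which does not fall under the threshold). These results hold for a list made by name. That list counts the chaperones Psmd5, Psmd9 and Psmd10 and leaves out Sem1, a small subunit of the lid. Mean Sem1 rose from 180.1 to 431 CPM in control and from 139 to 248 CPM in Sox2Hi tumours. The ratio with Sem1 was not computed, so the direction for the whole 19S particle was not tested.

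The clearest change in these genes was in PA28. Psme2, its beta subunit, was measured at 449, 507 and 496 CPM in naive control and at 1330 and 1344 CPM in treated control. In Sox2Hi tumours it was at 323, 432 and 373 CPM naive and 705 and 968 CPM treated. Psme1, the alpha subunit, was at 92.7, 99.7 and 115 CPM in naive control and 208 and 201 CPM in treated control. In Sox2Hi tumours Psme1 was at 80.1, 91.4 and 83.0 CPM naive and 137 and 161 CPM treated. For both genes all treated libraries of both grafts lay above all naive libraries. The log2 change of Psme2 was 1.47 in control (SE 0.18, adjusted p 0.0002) and 1.15 in Sox2Hi (SE 0.18, adjusted p 0.0032). That of Psme1 was 1.00 (SE 0.15, adjusted p 0.00045) and 0.81 (SE 0.15, adjusted p 0.0061).

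In control tumours both genes kept the call in all 21 alternatives, from 0.95 to 2.01 for Psme2 and from 0.49 to 1.54 for Psme1. In Sox2Hi tumours both lost it without treated Sox2Hi replicate 2, the higher of the 2 treated libraries (0.85 for Psme2 and 0.63 for Psme1). Psme1 also lost it under the all-gene scaling (0.54, SE 0.18, adjusted p 0.12). The difference in response between the grafts did not pass for either gene (interaction -0.31, adjusted p 0.44, and -0.19, adjusted p 0.59). Under the all-gene scaling it passed for both (-1.13, adjusted p 0.015, for Psme2 and -1.0, adjusted p 0.019, for Psme1).

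Both genes lie on chromosome 14 (GRCm38, GENCODE M21): Psme1 (ENSMUSG00000022216) on the plus strand from 55578123 to 55581529 and Psme2 (ENSMUSG00000079197) on the minus strand from 55587441 to 55591113. Because the pair rose together, the stretches before their RefSeq start sites that lie outside all annotated exons are shown, with those of Psmb6 and Psmb5, catalytic core genes that did not pass the test. Sequences are RefSeq's from GRCm38.p6, 5′ to 3′ on the gene's strand, and capitals mark a match to TGACNNNGC, the antioxidant response element core. That of Psme1 lies past the first annotated start of the gene, between exons of a longer transcript. The stretches end 134, 12, 0 and 27 bases before the start sites of Psme1, Psme2, Psmb6 and Psmb5. The regions are chr14:55578249-55578359 (plus strand), chr14:55591114-55591351 (minus), chr11:70525107-70525356 (plus) and chr14:54618023-54618245 (minus).
Psme1: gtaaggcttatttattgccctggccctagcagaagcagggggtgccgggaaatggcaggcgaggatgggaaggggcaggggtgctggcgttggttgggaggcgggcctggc
Psme2: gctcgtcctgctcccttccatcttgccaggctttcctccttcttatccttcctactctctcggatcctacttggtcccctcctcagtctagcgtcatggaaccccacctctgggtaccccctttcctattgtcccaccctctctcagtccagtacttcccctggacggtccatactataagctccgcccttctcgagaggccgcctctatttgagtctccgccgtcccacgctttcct
Psmb6: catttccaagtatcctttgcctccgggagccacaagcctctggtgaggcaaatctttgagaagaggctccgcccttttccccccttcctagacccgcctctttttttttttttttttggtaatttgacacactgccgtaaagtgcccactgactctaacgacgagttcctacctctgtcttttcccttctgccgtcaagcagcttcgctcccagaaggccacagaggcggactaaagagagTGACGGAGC
Psmb5: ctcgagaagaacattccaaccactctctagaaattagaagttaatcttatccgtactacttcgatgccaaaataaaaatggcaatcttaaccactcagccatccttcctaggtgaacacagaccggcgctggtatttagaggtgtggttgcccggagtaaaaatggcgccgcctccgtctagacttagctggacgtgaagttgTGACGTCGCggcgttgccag

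Motifs were searched on both strands in promoter windows of 300 bases, from 250 before to 50 after the start, of which RefSeq's table holds 32851 in all and 40 for 37 of the members. The core of the interferon-stimulated response element, GAAA, any 2 bases and GAAA again, was in 5 of the 40 (12.5%: Psmb3, Psmd4, Psmd9, Psme1 and Psmg4), beside 3.44% of all windows. The match in Psme1 begins 9 bases past the start site, outside the printed stretch, and Psme2 has none in its windows. TTCNNNGAA, the core of the gamma-activated site, was in 2 of the 40 (5%, Psmd2 and Psmg1), beside 8.3% of all. TGACNNNGC was in 6 (15%: Psmb5, Psmb6, Psmc6, Psmd12, Psmd9 and Psme4), beside 12.4%, and CCAAT in 13 (32.5%), beside 37.4%. No matches of different motifs overlapped in a member. In Psmb6 the match begins at position -9 and in Psmb5 at -47, counted from the start site.

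**Figure D3:**
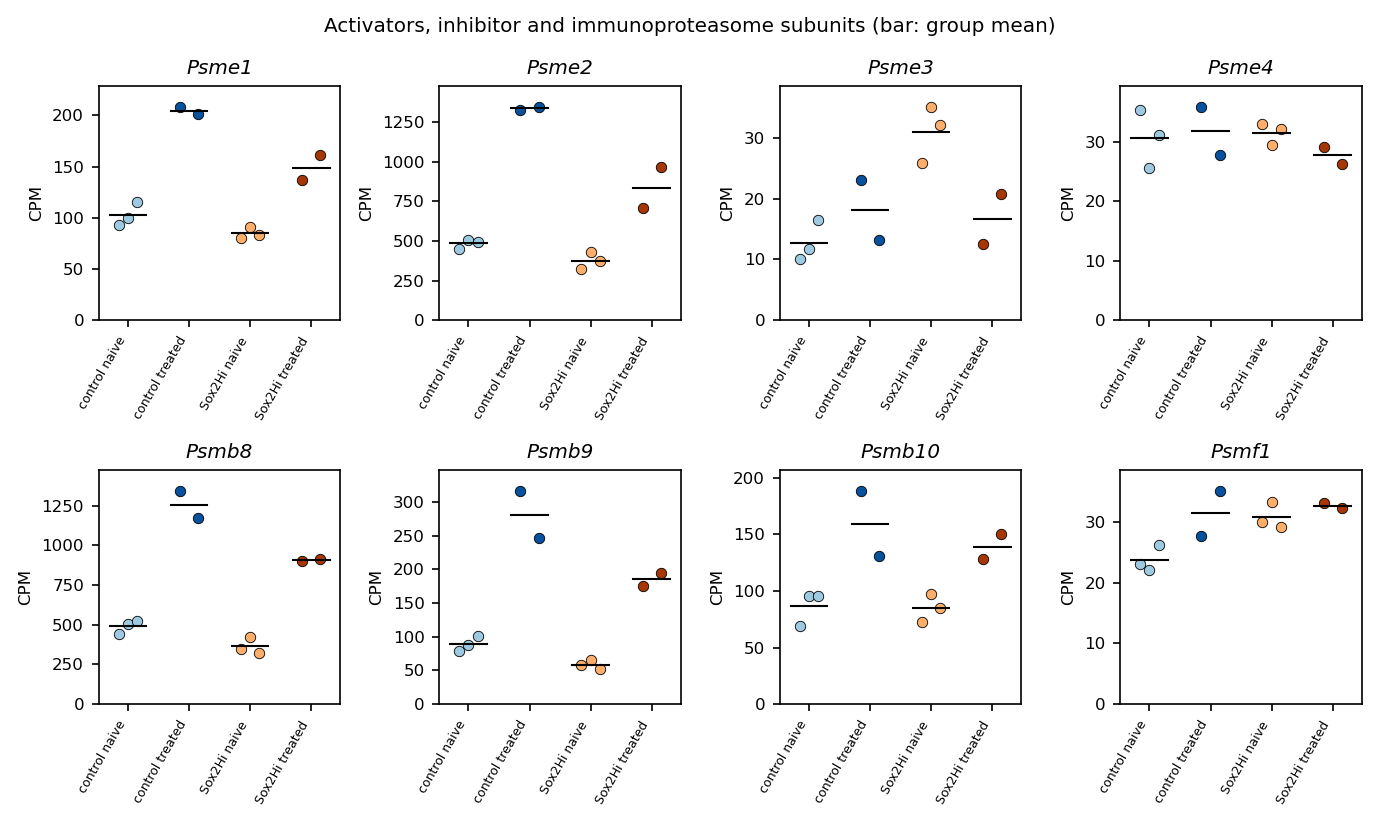
CPM (vertical axis, from 0) of the 4 activators, the 3 immunoproteasome subunits and the inhibitor Psmf1 by group, with points for libraries and bars for group means. Psme1, Psme2, Psmb8, Psmb9 and Psmb10 are higher in treated than in naive libraries of both grafts, and Psme3 is highest in the 3 naive Sox2Hi libraries.

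A near copy shares the sequence of Psme2. Psme2b, a protein-coding retrogene named here after its values were seen, had 508 to 742 reads in the naive libraries and 1341 to 2903 in the treated ones. It rose by 2.00 on the log2 scale in control and 1.81 in Sox2Hi tumours (SE 0.18 in both, adjusted p 6e-05 and 0.00034). How the counting split reads between the pair is not stated, so the level of Psme2 is uncertain. Per kb of exon and over all libraries, Psme2 stood at 393 CPM per kb, Psme1 at 57.5, Psme3 at 6.80 and Psme4 at 3.65. The ratio of Psme2 to Psme1 was 5.95 ± 0.48 in naive control (SD, n = 3) and 8.18 ± 0.26 in treated control (SD, n = 2), and 5.53 ± 0.44 and 6.98 ± 0.77 in the Sox2Hi groups. PA28 is built with the 2 subunits in near equal number, and these are ratios of RNA.

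PA28 rose against the core as well as against all genes. The ratio of Psme1 and Psme2 to the 14 core genes, per kb, was 0.197, 0.284 and 0.204 in naive control and 0.608 and 0.510 in treated control. In Sox2Hi tumours it was 0.182, 0.224 and 0.175 naive and 0.391 and 0.474 treated. It was 2.35-fold higher with treatment over both grafts (log2 difference 1.23, exact two-sided permutation p = 0.01, the smallest possible, and 0.02 adjusted). The difference between grafts was -0.30, and it did not pass (exact two-sided permutation p = 0.0833, adjusted 0.1). This test does not pair the naive libraries, where the ratio was lower in Sox2Hi than in control at each replicate number.

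Psmb8, Psmb9 and Psmb10, which are not members of the set, moved with PA28. Their log2 changes were 1.36, 1.66 and 0.88 in control tumours (edgeR adjusted p 0.00018, 8.6e-05 and 0.0048) and 1.32, 1.67 and 0.71 in Sox2Hi tumours (0.00088, 0.00034 and 0.037). Psmb10 lost the Sox2Hi call in 10 of 21 alternatives, including the all-gene scaling and the fits without naive Sox2Hi replicate 1 or 3 or either treated Sox2Hi library. Summed per kb and divided by Psmb5, Psmb6 and Psmb7, the 3 genes gave a ratio of 0.550, 0.846 and 0.619 in naive control and 2.04 and 1.31 in treated control. In Sox2Hi tumours the ratio was 0.541, 0.671 and 0.456 naive and 1.40 and 1.36 treated. Each treated library lay above each naive library. Whether a ratio is above or below 1 depends on the exon lengths used, which are long for Psmb8 and Psmb9. The treatment difference was 2.49-fold (log2 difference 1.32, exact two-sided permutation p = 0.01, the smallest possible, and 0.02 adjusted). The graft difference was -0.25 (exact two-sided permutation p = 0.233, adjusted 0.233). Here too the naive libraries were not paired, and the naive ratio was lower in Sox2Hi at each replicate number. Psmb9 alone was called lower in Sox2Hi, in naive (-0.60, SE 0.15, edgeR adjusted p 0.027) and in treated tumours (-0.60, SE 0.19, adjusted p 0.045). These calls were kept in 9 of 22 and 6 of 21 alternatives. The naive one held without naive control replicate 1 or treated Sox2Hi replicate 1 and was lost without any 1 of the other 8 libraries. The treated one held without naive control replicate 2 or 3 and was lost without any 1 of the other 8.

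**Figure D4:**
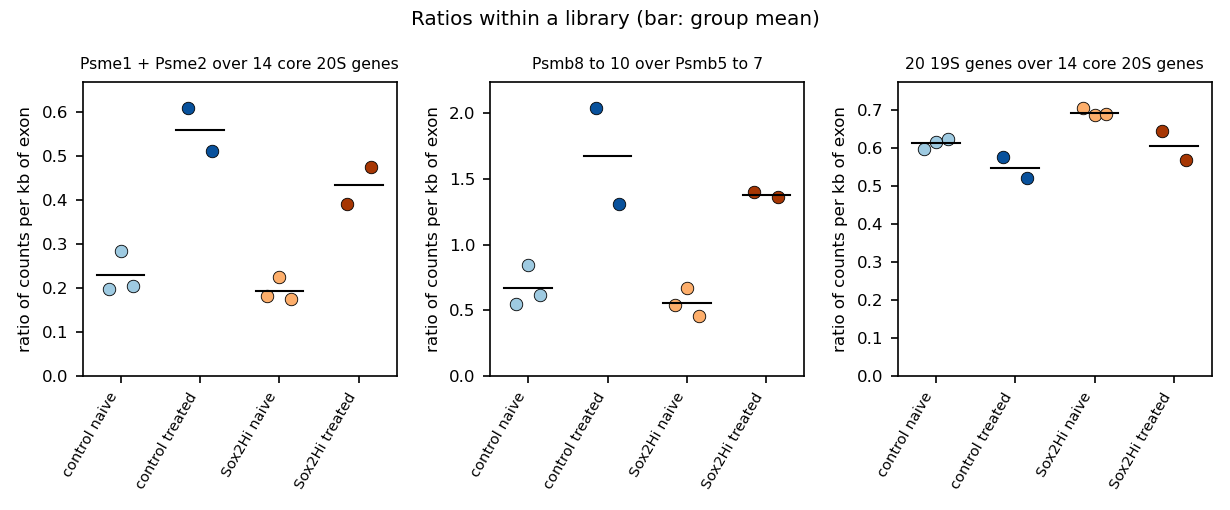
Ratios within each library (vertical axes, from 0) of PA28 to the 14 core genes, of the immunoproteasome to the constitutive catalytic genes, and of the 19S to the core genes, with points for libraries and bars for group means. The first 2 ratios are higher and the third lower in treated than in naive libraries of each graft.

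Among treated tumours Psme2 was lower in Sox2Hi than in control (-0.68, SE 0.20, adjusted p 0.037), and no Sox2Hi library reached a control one. The call was lost in 11 of 21 alternatives, which include limma-voom and the 20S scaling. It was lost without naive control replicate 1, either treated control library, naive Sox2Hi replicate 3 or treated Sox2Hi replicate 1. Under the all-gene scaling the value was -1.12 (adjusted p 0.011). Psme1 had -0.46 (SE 0.16, adjusted p 0.068), and was called with the block by title number (-0.46, adjusted p 0.044). Other fits that called Psme1 lower in treated Sox2Hi tumours were the all-gene scaling (-0.90, adjusted p 0.018), DESeq2 (-0.62, adjusted p 0.0047), RLE factors (-0.62, adjusted p 0.027) and the one without naive control replicate 2 (-0.49, adjusted p 0.049). In naive tumours the values were -0.36 for Psme2 (SE 0.16, adjusted p 0.18) and -0.27 for Psme1 (SE 0.13, adjusted p 0.23). Of the 10 neutrophil markers 4 were also lower in Sox2Hi among treated tumours, and their part in the Psme2 difference was not tested.

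Psme3, the single subunit of the nuclear PA28 gamma cap, behaved unlike the other activators. It was at 9.99, 11.7 and 16.4 CPM in naive control and at 25.9, 35.0 and 32.1 CPM in naive Sox2Hi, without overlap (log2 difference 1.29, SE 0.27, adjusted p 0.015). Control treated libraries were at 23.1 and 13.1 CPM and treated Sox2Hi ones at 12.5 and 20.7 CPM, and the grafts overlapped after treatment (-0.12, SE 0.33, adjusted p 0.83). Within grafts neither change passed (0.51, SE 0.30, adjusted p 0.17 in control, and -0.90, SE 0.31, adjusted p 0.057 in Sox2Hi), but their difference did (interaction -1.41, SE 0.43, adjusted p 0.04). The change in control was called under the all-gene scaling (1.03, adjusted p 0.028) and without treated control replicate 2 (1.01, adjusted p 0.031). The change in Sox2Hi tumours was called by 9 alternatives, among them DESeq2 (-1.0, adjusted p 0.0081), RLE factors (adjusted p 0.044), limma-voom (-0.96, adjusted p 0.022) and the groups compared alone (-0.97, adjusted p 0.026). The summed level of B and plasma cell markers was also highest in the naive Sox2Hi libraries. Their 4 genes summed to 148 to 682 CPM in naive Sox2Hi and to 23.9 to 120.0 CPM in the other 3 groups, and none of the 4 was at 0 in every library. In naive Sox2Hi replicate 2, which had the highest Psme3, Jchain was at 574, Cd79a at 43.2 and Ms4a1 at 40.4 CPM. In replicates 1 and 3 Jchain was at 139 and 166 CPM, Cd79a at 2.95 and 1.21, and Ms4a1 at 2.66 and 2.38. Ms4a1 in these replicates lay below naive control (4.03 to 5.6 CPM). Of the macrophage markers, Adgre1 (28.8 to 51.9 CPM in naive control, 53.4 to 69.5 in naive Sox2Hi) and C1qa were higher in naive Sox2Hi without overlap. The naive groups overlapped for C1qb, C1qc, Csf1r and Mrc1. The part of these cells in the Psme3 difference was not tested.

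The naive difference of Psme3 had values from 1.14 to 1.64 over 22 alternatives and was called in 16. Blocking by replicate number, which pairs the naive libraries, kept the call (1.31, adjusted p 0.012, and 1.36, adjusted p 0.003 in a fit of the naive libraries alone). It was not called in the 2 naive groups alone, under the 20S scaling (1.42, adjusted p 0.15), or without naive control replicate 1 or 2 or naive Sox2Hi replicate 2 or 3. The interaction was called in 10 of 20 alternatives, in 4 of the 10 that leave out a library. It was lost without naive control replicate 1 or 2, naive Sox2Hi replicate 2 or 3, or replicate 1 of either treated group. The ratio of Psme3 to the core genes was 0.00302 ± 0.00066 in naive control and 0.00807 ± 0.00107 in naive Sox2Hi (SD, n = 3 each). Of the ubiquitin and shuttle genes, Ubqln1, named after its values were seen, was likewise lowest in the naive control and highest in the naive Sox2Hi group: 22.0 ± 4.98 CPM in naive control and 46.4 ± 4.27 in naive Sox2Hi (1.07, SE 0.18, adjusted p 0.013), with an interaction of -1.03 (SE 0.29, adjusted p 0.028).

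Psme4, the single-chain PA200 cap, was at 35.4, 25.6 and 31.1 CPM in naive control and 35.8 and 27.8 in treated control. It was at 33.0, 29.4 and 32.2 CPM in naive Sox2Hi and 29.1 and 26.3 in treated Sox2Hi. It passed in no comparison with the expressed-gene scaling, with changes from -0.23 to 0.05. The all-gene scaling called it in control tumours (0.58, adjusted p 0.047) and in the interaction (-1.04, adjusted p 0.025).

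**Figure D5:**
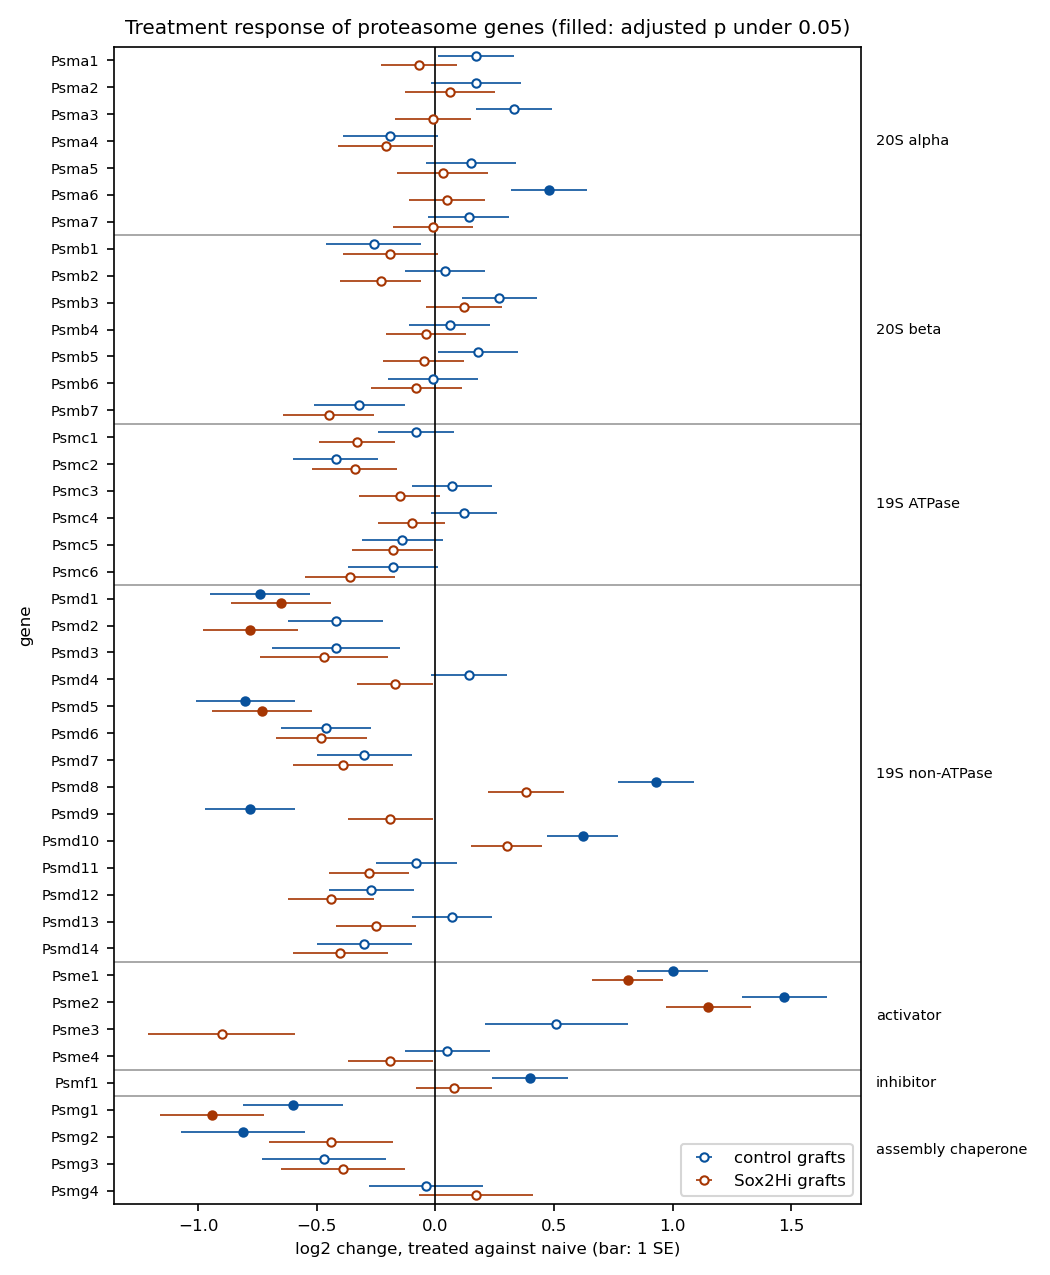
Log2 change with treatment (horizontal axis) of the 43 tested genes in control and Sox2Hi tumours, with bars of 1 SE and filled points for an adjusted p under 0.05. Psme1 and Psme2 are filled to the right of 0 in both grafts, and Psmd1, Psmd5 and Psmg1 are filled to the left in both.

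Of the 4 chaperones that build the core, Psmg1 and Psmg2 fell with treatment. Psmg1, which works as a pair with Psmg2, fell from 32.6, 21.3 and 32.4 CPM to 18.1 and 19.7 CPM in control (-0.60, SE 0.21, adjusted p 0.03). In Sox2Hi tumours it fell from 26.4, 26.8 and 31.4 CPM to 16.6 and 12.8 CPM (-0.94, SE 0.22, adjusted p 0.015). The treated libraries lay below the naive ones in both grafts. The control call was kept in 11 of 21 alternatives. It was lost under the all-gene scaling (-0.07, adjusted p 0.83), with DESeq2 and RLE factors, and without naive control replicate 1 or 3, either treated control library or treated Sox2Hi replicate 2. The Sox2Hi call was kept in 19, and was lost without naive Sox2Hi replicate 3 or treated replicate 2. Psmg2 fell in control from 14.4, 10.7 and 16.3 CPM to 5.92 and 9.83 CPM (-0.81, SE 0.26, adjusted p 0.021). This call was lost under the all-gene scaling (-0.27) and without naive control replicate 1 or 3 or treated control replicate 1. In Sox2Hi tumours Psmg2 was at 11.0, 12.4 and 14.1 CPM naive and 9.88 and 8.46 CPM treated (-0.44, SE 0.26, adjusted p 0.21). Psmg3 and Psmg4 did not pass, with changes from -0.47 to 0.17, and expected background was 12.5% of the reads of Psmg3. These 4 genes have mean levels of 7.27 to 23.8 CPM, and the median change over genes of 5 to 50 CPM in treated control tumours was -0.341.

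Psmf1 (PI31), known as an inhibitor of the 20S in vitro, was at 23.0, 22.0 and 26.1 CPM in naive control and at 27.7 and 35.0 CPM in treated control (0.40, SE 0.16, adjusted p 0.044). It was at 29.9, 33.2 and 29.1 CPM in naive Sox2Hi and 33.0 and 32.2 in treated Sox2Hi (0.08, SE 0.16, adjusted p 0.71). The control call held in 8 of 21 alternatives. It was lost without naive control replicate 1 or 2, treated control replicate 2, any 1 of the naive Sox2Hi libraries or treated Sox2Hi replicate 1, and in the fits blocked by replicate number. In naive tumours Psmf1 was higher in each Sox2Hi library than in each control one (0.38, SE 0.14, adjusted p 0.11), and a fit of the naive libraries blocked by replicate number called it (0.43, SE 0.13, adjusted p 0.044). That fit called 4 genes, Psme3, Psmd2 (0.56, adjusted p 0.011), Psmf1 and Psmd5 (0.38, adjusted p 0.05), all higher in Sox2Hi, beside 8.3% of all genes higher (22% either way), where the fit of 4 groups without the block called 1.

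The tissue-restricted members were at the edge of detection. Psma8, the alpha subunit of the testis, had 3 to 19 reads a library and 0.179 to 1.15 CPM, and expected background equalled 109% of its reads. Psmb11, the thymic beta subunit, had 42 to 85 reads, 2.63 to 5.66 CPM, and background equalled 39.4% of its reads. Their groups do not overlap within either graft, with Psma8 at 1.02 ± 0.04 CPM in naive control, 0.306 ± 0.18 in treated control, 0.604 ± 0.142 in naive Sox2Hi and 0.983 ± 0.233 in treated Sox2Hi. The silent-gene background was lowest in the treated control libraries, where Psma8 was also lowest, and neither gene was called under the all-gene scaling (lowest adjusted p 0.061). Without a filter on low counts both were called in the interaction (2.45 and 1.55).

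Other genes of the pathway, from lists chosen with earlier results of these data known, moved in both directions. Of 10 assembly and associated factors, 4 rose and 2 fell in treated control tumours and 1 rose and 1 fell in treated Sox2Hi tumours, beside 57.3% and 21.6% of all genes called. Sem1, a small subunit of the lid, rose from 197, 183 and 160.1 CPM to 412 and 451 CPM in control (1.26, SE 0.15, adjusted p 0.00021). In Sox2Hi tumours it rose from 151, 141 and 126 CPM to 224 and 272 CPM (0.83, SE 0.15, adjusted p 0.007), a call lost under the all-gene scaling and without treated Sox2Hi replicate 2. Among treated tumours Sem1 was lower in Sox2Hi (-0.80, SE 0.17, adjusted p 0.013), a call lost without treated control replicate 2 or treated Sox2Hi replicate 1. Pomp, which matures the core, did not pass in control (0.17, SE 0.18) or Sox2Hi tumours (-0.03, SE 0.18), nor did the ubiquitin receptor Adrm1 (-0.31, SE 0.20, and -0.23, SE 0.20).

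Of 8 regulators of proteasome genes, 6 rose and 1 fell in treated control tumours and 3 rose in treated Sox2Hi tumours, against the same shares of all genes. Nfe2l1, the factor that drives proteasome genes when the particle is inhibited, fell in control from 11.1, 11.3 and 13.2 CPM to 5.64 and 7.27 CPM (-0.87, SE 0.24, adjusted p 0.01). In Sox2Hi tumours it was at 10.1, 10.9 and 12.1 CPM naive and 13.6 and 8.25 CPM treated (-0.02, SE 0.23), and the control call was lost under the all-gene scaling (-0.33) and without treated control replicate 1. Nfe2l2, the antioxidant response factor, rose in control (1.07, SE 0.22, adjusted p 0.0024) and in Sox2Hi tumours (0.75, SE 0.22, adjusted p 0.037), where 13 of 21 alternatives lost the call, among them the fits without either treated control library, naive Sox2Hi replicate 2 or 3 or either treated Sox2Hi library. Of 17 tested ubiquitin and shuttle genes, 4 rose and 5 fell in control and 0 rose and 5 fell in Sox2Hi tumours (edgeR, 6 at an unadjusted p under 0.05), beside 57.3% and 21.6% of all genes called. Irf1, a transcription factor induced by interferon, rose in control tumours from 59.4, 80.8 and 72.5 CPM to 272 and 146 CPM (1.56, SE 0.25, adjusted p 0.00072). It also rose in Sox2Hi tumours, from 70.2, 70.4 and 49.5 CPM to 186 and 173 CPM (adjusted p 0.0045), a call lost without treated Sox2Hi replicate 2. It passed in no comparison of grafts.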

How the data were processed

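Bulk RNA-seq of 10 libraries was analysed from a table of estimated counts per gene, whole numbers as deposited by the authors. Per the submitters' processing notes, kallisto 0.44.0 and mm10 were used, with no role given, and the annotation and strand setting are not given in the sources used here. The values were first taken to be read counts; the same test was used for estimated counts. Of the 55481 entries, 96 are spike-ins or transgenes and were left out of totals and tests (0.000992% to 0.00277% of counts).

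Treatment was compared within each graft, grafts within each treatment, and the 2 responses with each other, in one model of 4 groups (edgeR 4.0.16 quasi-likelihood test in R 4.3.3, Benjamini-Hochberg adjusted p under 0.05). Genes averaging 5 CPM or more entered, 11274 in all, and TMM factors came from these. CPM values printed are scaled by those factors. The test was tested on simulated data. DESeq2 1.42.0, limma 3.58.1, other scalings, a replicate block, background subtraction and leaving out each library were alternatives, and scaling to the 14 core genes was added after seeing the data. Ratios were computed per kb of exon in GENCODE M21 and tested by exact permutation (Python 3.11.15, pandas 2.3.3, numpy 2.4.6).

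The genes and lists were chosen with earlier results of these data known. Named were the activators, Psmb5, Psmb6, Psmb7, Psma8, Psmb11, Psmd4, Psmd14, Psmf1, in each class and comparison the called genes with the largest rise and fall, and Psmb8, Psmb9, Psmb10, Pomp, Adrm1, Sem1, Nfe2l1, Nfe2l2 and Irf1 of the lists. A gene that the rule also names is not reported here. Other genes were named after their values were seen, among them Psmc2, Psmd1, Psmd10, Psme2b and Ubqln1. Naive libraries with the same title number had correlated deviations (r 0.273, 0.325 and 0.474), so the numbers were taken to pair them, although the meaning of the number is not labelled. This pairing was used only in the alternatives with a replicate block, and the main fit has no block. Treated libraries were not taken as paired: same-numbered ones had r -0.095 with each other. With naive libraries of their number, treated control ones had r 0.153 to 0.246 and treated Sox2Hi ones -0.28 to 0.085, and Ddx3y reads differed between the same-numbered treated libraries.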

Additional observations from a re-analysis of the deposited data

Results flagged for a closer look

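The response of Psme3 to treatment differed between the grafts. Its log2 change was 0.51 in control and -0.90 in Sox2Hi tumours, and the test of the difference gave -1.41 (SE 0.43, edgeR adjusted p 0.04). Over 20 alternatives the difference ran from -2.20 to -1.09 with adjusted p from 0.0014 to 0.18, and 10 of them kept the call.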

How the results depend on the processing

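The number of the proteasome genes called, in the order treated against naive in control and in Sox2Hi tumours, Sox2Hi against control in naive and in treated tumours, and the interaction, was 11, 6, 1, 2 and 1, beside 57.3%, 21.6%, 14%, 20.9% and 19.8% of all genes tested. All-gene scaling gave 19, 3, 1, 8 and 24 (34%, 3.61%, 1.87%, 13.7% and 27.5%). DESeq2 gave 11 for Sox2Hi treatment, 3 and 12 for the grafts and 6 for the interaction (27%, 16.6%, 27.9% and 29.8%), and RLE factors gave 10, 2, 6 and 3 (20%, 9.49%, 20.4% and 24.2%). Library totals gave 26 and 18 for treatment, 1 for treated grafts and 0 for the interaction (edgeR, 2 at an unadjusted p under 0.05), beside 66.5%, 26.9%, 26.2% and 19.8%, and turned Psma6 to -0.03 and Psmf1 to -0.11 in control tumours. For Sox2Hi treatment limma-voom gave 10, for naive grafts 5 and for treated grafts 0 (6 unadjusted), beside 33.4%, 36.6% and 15.8%. Groups compared alone gave 13 for Sox2Hi treatment and 0 for naive and treated grafts (edgeR, 3 and 4 unadjusted), beside 30.2%, 0.16% and 7.41%. Background subtraction gave 0 for treated grafts and 0 for the interaction (edgeR, 7 and 2 unadjusted), beside 8.08% and 11.6%, and no filter gave 3 for the interaction (20.1%). Scaling to the 14 core genes, chosen after seeing the data, gave 3 for Sox2Hi treatment, 0 for naive grafts and 0 for the interaction (edgeR, 5 and 2 unadjusted), beside 5.93%, 0.0532% and 12.6%. The replicate block by title number gave 2 for naive grafts (17.7%), and 4 in the naive libraries alone (22%). By description number it gave 1 for treated grafts and 0 for the interaction (edgeR, 3 unadjusted), beside 15.4% and 17.4%. The cause of these changes was not tested.

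Leaving out each library in turn, where a lone treated library is assumed to vary like the other groups, gave 7 to 14, 0 to 12, 0 to 2, 0 to 5 and 0 to 2 genes, beside 43.2% to 59.6%, 1.77% to 29.4%, 0.0355% to 17.7%, 2.52% to 25.7% and 13.7% to 22.9% of all genes. For treated grafts 0 were called without treated control replicate 2 or treated Sox2Hi replicate 1 (edgeR, 4 and 1 unadjusted) and 5 without naive control replicate 2. The graft difference of the 19S to core ratio was 0.12 to 0.21 in these fits and 0.18 with the replicate block (exact p 0.25, the smallest 3 pairs allow). The treatment difference of that ratio was -0.22 to -0.13, that of PA28 1.16 to 1.32 and that of the immunoproteasome 1.16 to 1.48. Over 2078 fits of 99 uncalled pairs of gene and comparison, 102 gave a call, all in the direction first estimated, and 238 changed sign without a call. Over 820 fits of 39 called pairs, 657 kept the call. Depth limits Psma8, with 3 to 19 reads a library.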
